A study of Rattus norvegicus with 6 samples.

Results

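The set described here is 50 genes of DNA replication and nucleotide supply, taken as the rows of the deposited count table whose gene name is on a given list: origin licensing, the MCM helicase, CDC45 and GINS, the sliding clamp with its loader and the lagging-strand enzymes, polymerases and primase, the single-strand binding protein RPA, nucleotide synthesis, histone loading, and the fork protease Fam111a. All 50 were present among the 33566 genes of the table, and all 50 were among the 14603 genes tested, which needed 10 or more counts in total, so no member was lost to that filter. The table holds RNA-seq counts from primary rat brain microvascular endothelial cells (rBMECs), the cells that line brain capillaries and form the blood-brain barrier. They came from SD rats aged 18 to 22 days (from the cortex by the labels, from the forebrain by the study's methods) and were cultured and passaged before treatment. Hcy cells received homocysteine, a sulphur amino acid of the methionine cycle, for 24 h, and Veh cells received the ddH2O solvent. The sample labels give the dose as 100 µM, while the treatment text also names a prepared 50 µM solution, so the final concentration is uncertain. Each group had 3 biological replicates by the series' design text, and how rats were divided among them is not given in the sources used here.

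A cell copies its DNA once per cycle, and the machinery is built in steps. The origin recognition complex, CDC6 and CDT1 load the MCM ring onto origins in G1, CDC45 and GINS join it in S phase to make the active helicase, and polymerases held by the PCNA clamp then copy both strands. Many of these genes are classical targets of the E2F transcription factors and are transcribed mainly from late G1 into S phase, so their summed RNA is widely used as a readout of how many cells in a culture are cycling. In separate assays the study reported lower proliferation of rBMECs after Hcy, read at a later time, and more apoptosis. How those results relate to the RNA levels below was not tested.

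Total counts ranged from 14024997 to 16764584 per library, and the floor of 3 counts used here lay between 0.178 and 0.215 CPM (counts scaled to a common library total, TMM-normalised). The first principal component (31.6% of variance) parted Hcy from Veh, and the second (29.3%) set Veh 3 (score 24.6) apart from Veh 1 and Veh 2 (-12.9 and -15.6). Among the defining endothelial markers 13 of 15 were in the table, 12 were tested and 0 passed in either direction by edgeR (7 had an unadjusted p under 0.05, against 1955 of all 14603 genes tested). Vwf, Kdr, Flt1 and Tie1 were higher in every Hcy library, and Slc2a1, Eng, Tek and Slco1a4 lower, with log2 fold changes from -0.53 to 0.37 over the 12. Of all genes tested, 10.8% had every Hcy library above every Veh library and 9.27% had every Hcy library below, so these markers were not unchanged. Their summed level was 9047 to 10559 CPM in Veh and 10478 to 10906 CPM in Hcy, while Cldn5 was listed at 0 in all libraries. The Cldn5 model overlaps that of Cdc45 on the other strand, and the strand setting of the counting is not given in the sources used here, so a 0 for Cldn5 and the counts of Cdc45 cannot be fully separated. Of 11 mural cell markers, the contractile genes Tagln and Acta2 fell (log2 fold change -0.88 and -0.64), against 1.01% of all genes tested, and the other 9 did not pass. The summed mural level was 1104 to 1331 CPM in Veh and 674 to 700 CPM in Hcy, nearly all of it from Tagln (mean 1071 and 582 CPM) and Acta2 (149 and 95.5 CPM). The other 9 had group means of at most 2.72 CPM. By direction 6 of the 11 were higher in Hcy, with a median log2 fold change of 0.44, and Cspg4 and Rgs5 lay higher and Kcnj8 lower in every Hcy library, all 3 from counts so near the floor that no fold is given.
Summed fibroblast markers were at 63.5 to 91.2 CPM in Veh and 44.9 to 68.7 CPM in Hcy, and 3 of the 4 tested were higher in Hcy (median log2 fold change 0.30), the sum being mostly Col1a1 (mean 69.0 and 48.0 CPM). Summed astrocyte markers were at 126 to 150 and 113 to 116 CPM, nearly all Gja1 (139 and 115 CPM), with Aqp4 and Slc1a2 at 0. Microglial markers summed to at most 0.900 CPM, with Cx3cr1, Ptprc and Tyrobp at 0. Oligodendrocyte markers summed to 10.6 to 12.4 CPM over all libraries with Mag at 0, and neuronal markers to 5.22 to 9.77 CPM with Map2, Rbfox3 and Snap25 at 0. The part of these other cell types in the results for replication genes was not tested.

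Most of the replication set was higher after Hcy. By edgeR's quasi-likelihood test, with p adjusted by Benjamini-Hochberg over all genes tested and a limit of 0.05, 17 of the 50 genes (34%) rose, against 1.32% of all genes tested. A single member, Fam111a, fell, against 1.01% of all genes tested. The other 32 did not pass. An unadjusted p under 0.05 was reached by 34 of the 50, against 1955 of all 14603. By direction alone, 44 genes were higher and 6 lower (Orc3, Orc4, Orc5, Gins2, Rfc1 and Fam111a), and the median log2 fold change was 0.50, compared with -0.02 over all genes tested. In 33 genes every Hcy library lay above every Veh library, which was so for 10.8% of all genes tested. The reverse order held for Fam111a, Gins2 and Orc4, against 9.27% of all genes. With the study's added threshold of an absolute log2 fold change of 1, only Asf1b and Fam111a qualified, compared with 0.486% of all genes in either direction. In bulk RNA, fewer or more cells of a type and less or more RNA per cell cannot be told apart.

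**Figure D1:**
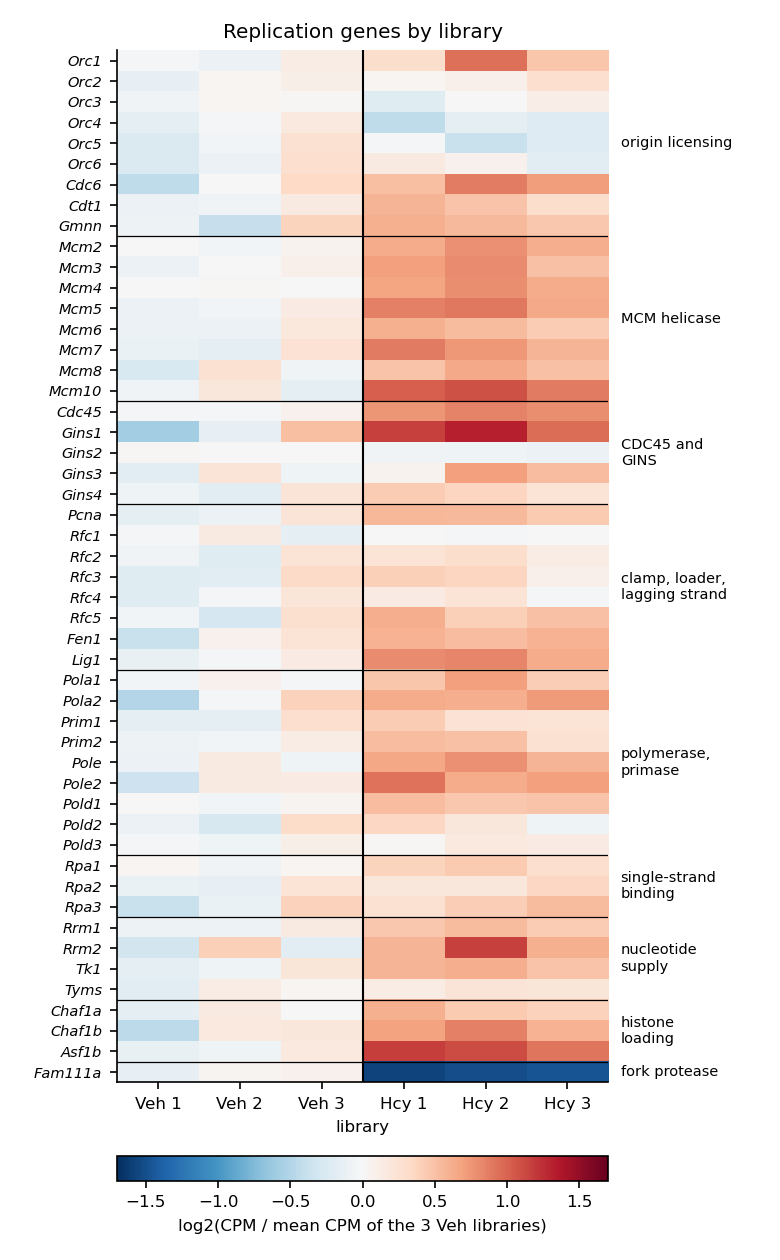
Level of each of the 50 genes in each library, as log2 of its CPM over the mean CPM of the 3 Veh libraries (colour scale), with genes as rows grouped by role and libraries as columns. Hcy columns are mostly red from the MCM rows downwards, the ORC rows are mixed, and Fam111a is the blue row.

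With Fam111a left out, the difference was seen in the summed level as well as gene by gene. Summed over the 49 genes other than Fam111a, the level was 1337, 1394 and 1589 CPM in Veh replicates 1, 2 and 3 and 1985, 2029 and 1867 CPM in Hcy replicates 1, 2 and 3. In this sum the 2 groups did not overlap, and the nearest libraries were Veh 3 and Hcy 3. With Fam111a included, the sum over all 50 genes was 1761 to 2080 CPM in Veh and 2036 to 2193 CPM in Hcy, and the groups overlapped. Veh 3 was the highest Veh library for 37 of the 50 genes, and Hcy 3 the lowest Hcy library for 29. The number of genes that passed differed with the library left out. Without Veh 3, 31 members rose, these 17 among them, while all genes that rose went from 193 to 500. The 14 added were Cdc6, Gmnn, Gins1, Rfc2, Rfc3, Rfc5, Fen1, Pola2, Prim1, Prim2, Rpa2, Rpa3, Chaf1a and Chaf1b. With DESeq2 in place of edgeR, 26 rose, these 17 among them, and the 9 added were Cdc6, Gins1, Rfc5, Fen1, Pola2, Prim2, Rrm2, Chaf1a and Chaf1b. Without Hcy 1, Hcy 2, Hcy 3, Veh 1 or Veh 2 the numbers of members that rose were 4, 5, 5, 5 and 7. Mcm2, Mcm4 and Mcm5 passed whichever of the 6 libraries was left out, as did Fam111a in the other direction, and the other 14 that rose each failed in at least 1.

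Promoter sequence was read for the genes with an entry in the RefSeq table of build GRCr8, which covers 250 bases before to 50 bases after the annotated start. This found 43 of the 50, without Orc1, Orc4, Cdc6, Mcm4, Gins4, Rpa3 and Rrm2. The E2F octamers TTTCCCGC, TTTGGCGC, TTTCGCGC and TTTGCCGC were searched on both strands, and overlapping matches were merged. At least 1 occurred in 20 of 43 member promoters (46.5%), against 2.14% of 33469 promoters in the table and 3.88% of those of genes tested. It was in 8 of 16 promoters of genes that rose (50%) and in 12 of 26 of genes that did not pass (46.2%). Of 25 matched stretches, 19 began between 60 bases before and 50 bases after the start. CCAAT, the box bound by NF-Y, also searched on both strands, was in 26 of 43 (60.5%), against 37.5% of all promoters and 37.2% of those of genes tested. It was in 13 of 16 that rose (81.2%) and 12 of 26 that did not pass (46.2%). The cell-cycle homology element TTTGAA was in 5 of 43 (11.6%), against 18.3% of all promoters and 12% of those of genes tested. A match is a description of letters and not a binding site. The letters shared by the matches were set by the search, and the 12 promoters of genes that did not pass hold such matches too. The stretches in the 8 genes that rose are given 5′ to 3′ on the gene's strand, with GRCr8 coordinates and the E2F match in capitals.
Lig1 (chr1:83243179-83243206, plus strand): caaggtctgcGCGCGAAAtctgtgtggc
Mcm2 (chr4:122918087-122918118, minus strand): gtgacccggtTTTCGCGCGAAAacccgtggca
Mcm3 (chr9:30733735-30733762, minus strand): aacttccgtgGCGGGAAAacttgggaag
Mcm3 (chr9:30733716-30733743, minus strand): cttgggaagtTTTCGCGCcagggaggag
Mcm5 (chr19:13488590-13488621, plus strand): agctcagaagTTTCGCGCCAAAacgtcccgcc
Mcm5 (chr19:13488795-13488822, plus strand): caggttggttTTTCCCGCgaaagtcggc
Mcm6 (chr13:42404470-42404501, minus strand): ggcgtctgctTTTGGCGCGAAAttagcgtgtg
Mcm7 (chr12:22163394-22163421, minus strand): atttcgaaccGCGGGAAAtcgggtgccc
Mcm7 (chr12:22163213-22163240, minus strand): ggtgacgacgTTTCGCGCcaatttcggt
Pola1 (chrX:62342510-62342537, minus strand): tcatcacaggGCGCCAAAtgcagtcccg
Pole (chr12:52053647-52053674, minus strand): acatgagagcGCGCCAAAttttcccggg

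To show promoters whole, the 300-base windows of Mcm5 (which rose and carries E2F and CCAAT matches), Asf1b (the largest log2 fold change of the genes that rose, with CCAAT matches and none of the E2F octamers) and Fam111a (which fell) follow, in GRCr8, with E2F and CCAAT matches in capitals.
Mcm5 (chr19:13488563-13488862, plus strand): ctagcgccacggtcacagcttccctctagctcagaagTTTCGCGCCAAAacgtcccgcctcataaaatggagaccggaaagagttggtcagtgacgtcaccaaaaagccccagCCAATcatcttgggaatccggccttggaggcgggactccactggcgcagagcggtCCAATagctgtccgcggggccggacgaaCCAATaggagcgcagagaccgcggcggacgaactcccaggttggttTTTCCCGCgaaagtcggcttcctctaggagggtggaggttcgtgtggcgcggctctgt
Asf1b (chr19:41100303-41100602, minus strand): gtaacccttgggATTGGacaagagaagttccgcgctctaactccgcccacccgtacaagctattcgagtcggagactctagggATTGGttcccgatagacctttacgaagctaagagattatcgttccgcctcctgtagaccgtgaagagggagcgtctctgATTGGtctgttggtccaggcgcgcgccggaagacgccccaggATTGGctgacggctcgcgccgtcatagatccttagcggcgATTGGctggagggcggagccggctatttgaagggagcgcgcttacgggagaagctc
Fam111a (chr1:219065389-219065688, plus strand): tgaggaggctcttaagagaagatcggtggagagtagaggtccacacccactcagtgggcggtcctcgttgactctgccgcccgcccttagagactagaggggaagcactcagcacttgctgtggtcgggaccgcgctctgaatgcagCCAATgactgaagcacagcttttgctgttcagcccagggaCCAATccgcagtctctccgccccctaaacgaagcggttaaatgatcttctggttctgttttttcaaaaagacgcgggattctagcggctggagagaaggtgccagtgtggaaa
Mcm5 has 2 E2F stretches and 3 CCAAT boxes. Asf1b has 0 of these E2F octamers and 5 CCAAT boxes, and Fam111a has 0 and 2.

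**Figure D2:**
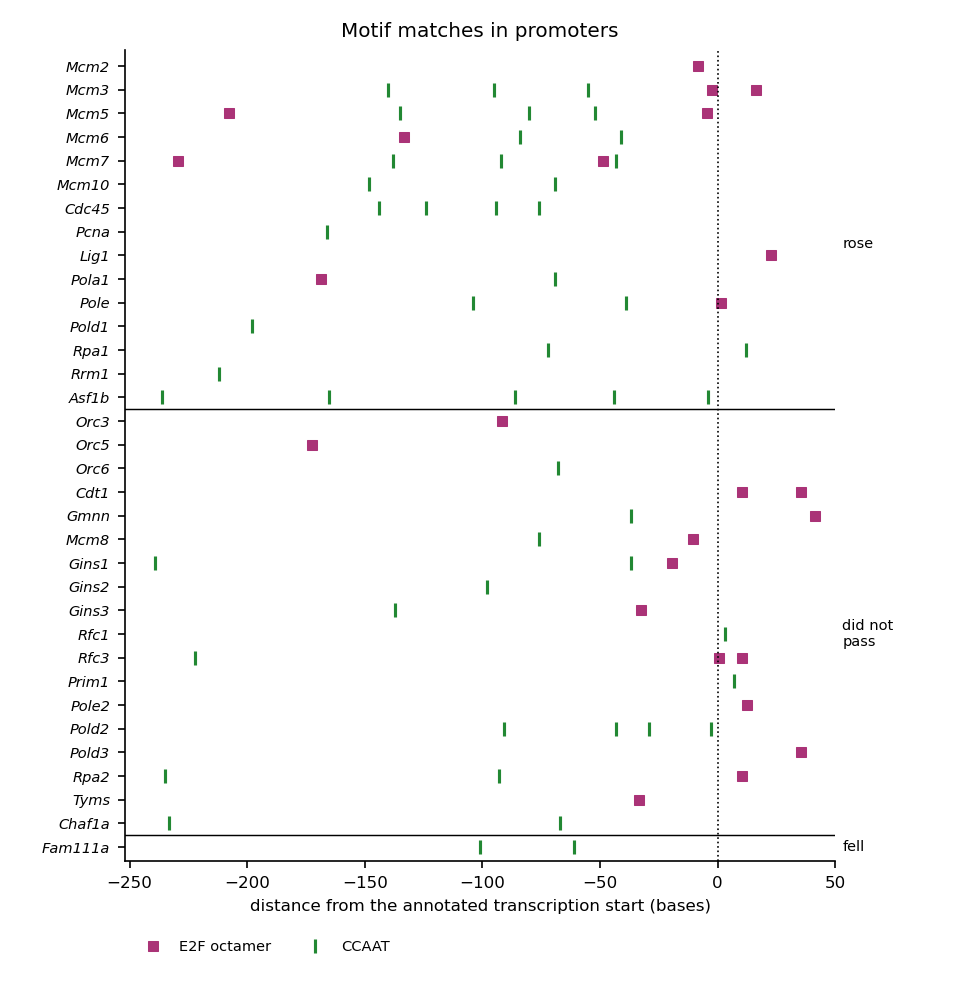
Positions of E2F octamers (squares) and CCAAT boxes (bars) in the promoters that hold either, as distance from the annotated transcription start in bases, with genes grouped into those that rose, did not pass or fell. E2F squares gather near the start in both of the larger groups, and the CCAAT bars lie mostly upstream.

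In the MCM group, 7 of 8 MCM genes rose, with a median log2 fold change of 0.69, and all 8 had every Hcy library above every Veh library. MCM2 to MCM7 form the ring of the replicative helicase, MCM10 helps to activate it, and MCM8 acts in repair by homologous recombination. Mcm2 measured 44.0, 42.8 and 46.1 CPM in Veh replicates 1, 2 and 3 and 68.8, 76.0 and 67.8 CPM in Hcy replicates 1, 2 and 3. Every Hcy library lay above every Veh library (log2 fold change 0.68 ± 0.08 (SE), edgeR adjusted p = 0.00370). Mcm4 measured 53.6, 54.8 and 53.5 CPM in Veh and 86.0, 93.1 and 83.6 CPM in Hcy (log2 fold change 0.70 ± 0.07 (SE), edgeR adjusted p = 0.00242). Mcm5 measured 42.7, 44.2 and 50.2 CPM in Veh and 82.7, 85.0 and 71.4 CPM in Hcy (log2 fold change 0.80 ± 0.10 (SE), edgeR adjusted p = 0.00487). In both the Hcy values stood clear of Veh, with Hcy 3 the lowest of its group.
Mcm3 measured 49.0, 52.8 and 55.7 CPM in Veh and 85.0, 91.8 and 73.9 CPM in Hcy (log2 fold change 0.67 ± 0.10 (SE), edgeR adjusted p = 0.0114). For Mcm6, the subunit with the highest level per kb in both groups, the values were 71.2, 70.8 and 86.5 CPM in Veh and 116, 111 and 102 CPM in Hcy (log2 fold change 0.53 ± 0.10 (SE), edgeR adjusted p = 0.0282). Mcm7 stood at 41.7, 40.2 and 53.8 CPM in Veh and 83.7, 75.6 and 67.4 CPM in Hcy (log2 fold change 0.74 ± 0.13 (SE), edgeR adjusted p = 0.0196). None of the 3 overlapped between groups. When same-numbered libraries were fitted as a replicate block, Mcm6 did not pass (edgeR adjusted p = 0.0537). Mcm10 was low in abundance and rose the most of the MCM genes, with 5.40, 6.44 and 4.98 CPM in Veh and 11.3, 11.8 and 10.4 CPM in Hcy (log2 fold change 0.99 ± 0.15 (SE), edgeR adjusted p = 0.0128), so that the lowest Hcy library exceeded the highest Veh library by more than any Veh library differed from another. The member that did not pass, Mcm8, had a mean of 5.10 CPM in Veh and 7.44 CPM in Hcy (log2 fold change 0.54, edgeR adjusted p = 0.194). Summed over Mcm2 to Mcm7, libraries gave 302, 306 and 346 CPM in Veh and 522, 532 and 466 CPM in Hcy. Scaled by gene length, the 6 subunits spanned 1.92-fold in Veh (Mcm2 at 13.6 to Mcm6 at 26.1 CPM per kb) and 1.73-fold in Hcy. A pseudogene that shares the Swiss-Prot match of Mcm4 held 276 counts in all, against 6519 for Mcm4, and adding them left Mcm4 passing (log2 fold change 0.68, adjusted p = 0.0031).

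**Figure D3:**
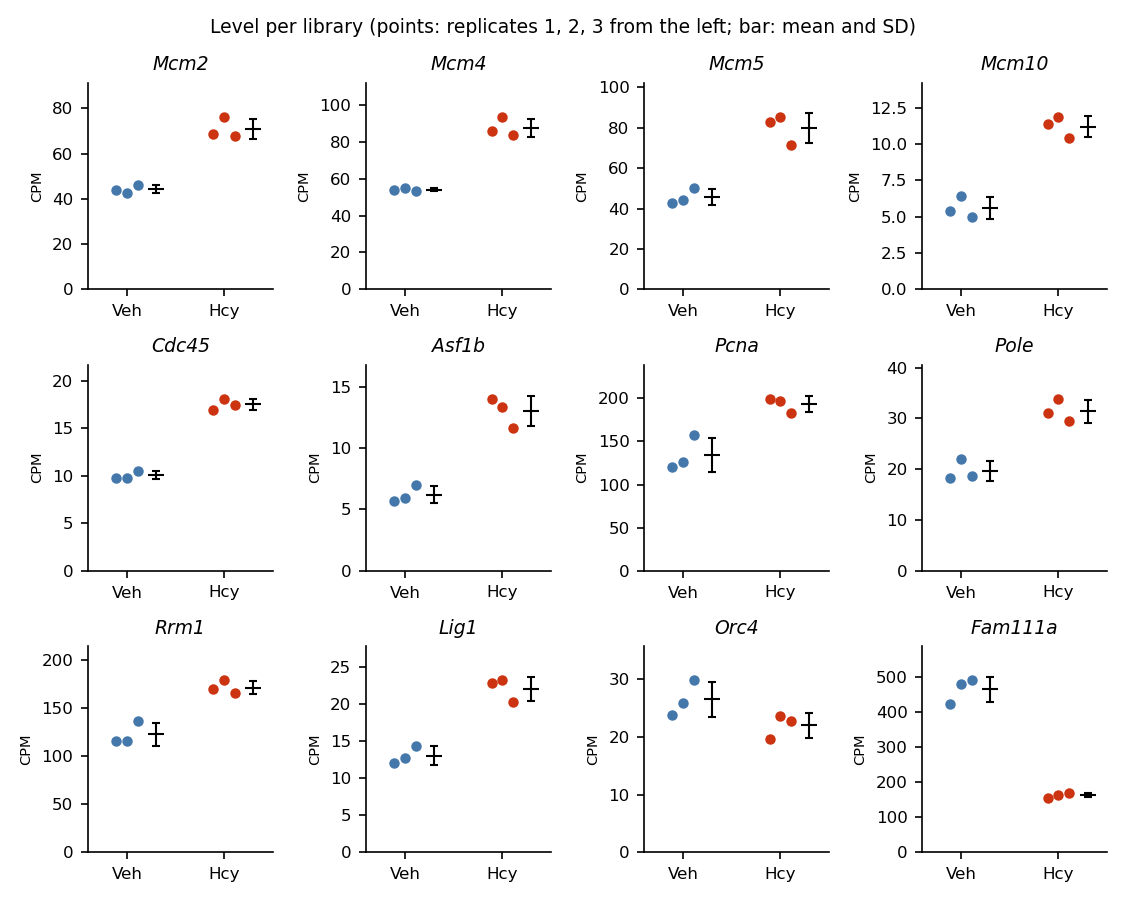
Level in CPM of 12 genes in each library (points, replicates 1, 2 and 3 from the left), with the mean and SD of each group. The 12 are all from the members whose groups do not overlap, with Hcy above Veh in all panels except Orc4 and Fam111a. Groups did overlap in some members not shown.

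Of the helicase partners, Cdc45 rose and the 4 GINS genes did not pass, and the median log2 fold change of the 5 was 0.46. Cdc45 encodes a subunit of the active helicase, and measured 9.79, 9.81 and 10.5 CPM in Veh and 16.9, 18.1 and 17.4 CPM in Hcy (log2 fold change 0.80 ± 0.11 (SE), edgeR adjusted p = 0.00817). All Hcy libraries lay above all Veh libraries. As the Cdc45 model overlaps that of Cldn5 on the other strand and the strand setting is not given, its reads may be uncertain. Among the GINS subunits Gins1 measured 2.85, 3.89 and 6.09 CPM in Veh and 9.55, 10.7 and 8.24 CPM in Hcy, and its log2 fold change of 1.15 ± 0.26 (SE), the highest of the 50 genes, did not pass (edgeR adjusted p = 0.0594). It passed with DESeq2 (adjusted p = 0.00103), with no count filter in edgeR (0.0159) and, in edgeR, without Veh 3 (0.00246). Its groups did not overlap, but Veh 1 lay well below Veh 3. Gins3 and Gins4 had log2 fold changes of 0.46 and 0.35. Gins2 was at -0.08 and was lower in every Hcy library, at 24.9 CPM on average against 26.3 CPM. Per kb, the 4 GINS subunits spanned 10.6-fold in Veh (Gins3 at 1.12 to Gins4 at 11.9 CPM per kb).

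Origin licensing, the loading of the MCM ring onto origins, showed 0 of 9 genes passing by edgeR. An unadjusted p under 0.05 was reached by 4 of the 9, against 1955 of all 14603 genes tested. The median log2 fold change was 0.15, with values from -0.27 to 0.71. Cdc6, the loader that joins the origin recognition complex, had the smallest p of the group, and measured 5.05, 6.82 and 8.58 CPM in Veh and 9.69, 12.4 and 11.2 CPM in Hcy (log2 fold change 0.71 ± 0.20 (SE), edgeR adjusted p = 0.137). The Hcy values lay above the Veh values, though Veh 1 was well under Veh 3. Cdc6 passed with DESeq2 (adjusted p = 0.0359), and Cdc6 and Gmnn passed in edgeR without Veh 3 (adjusted p = 0.0159 and 0.00622). Cdt1, which brings the MCM ring, and Gmnn, geminin, which inhibits CDT1, were higher in every Hcy library (log2 fold change 0.46 and 0.54, adjusted p = 0.155 and 0.200). Within the origin recognition complex Orc1, whose level varies through the cycle, was at 0.60 (adjusted p = 0.200). Orc2 and Orc6 were at 0.15 and 0.02, and Orc3, Orc4 and Orc5 at -0.03, -0.27 and -0.20. Orc4 was lower in every Hcy library, at 22.0 CPM on average against 26.5 CPM. Per kb the 6 ORC genes spanned 8.01-fold in Veh, with Orc1 lowest at 2.01 and Orc4 highest at 16.1 CPM per kb, and 4.39-fold in Hcy.

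**Figure D4:**
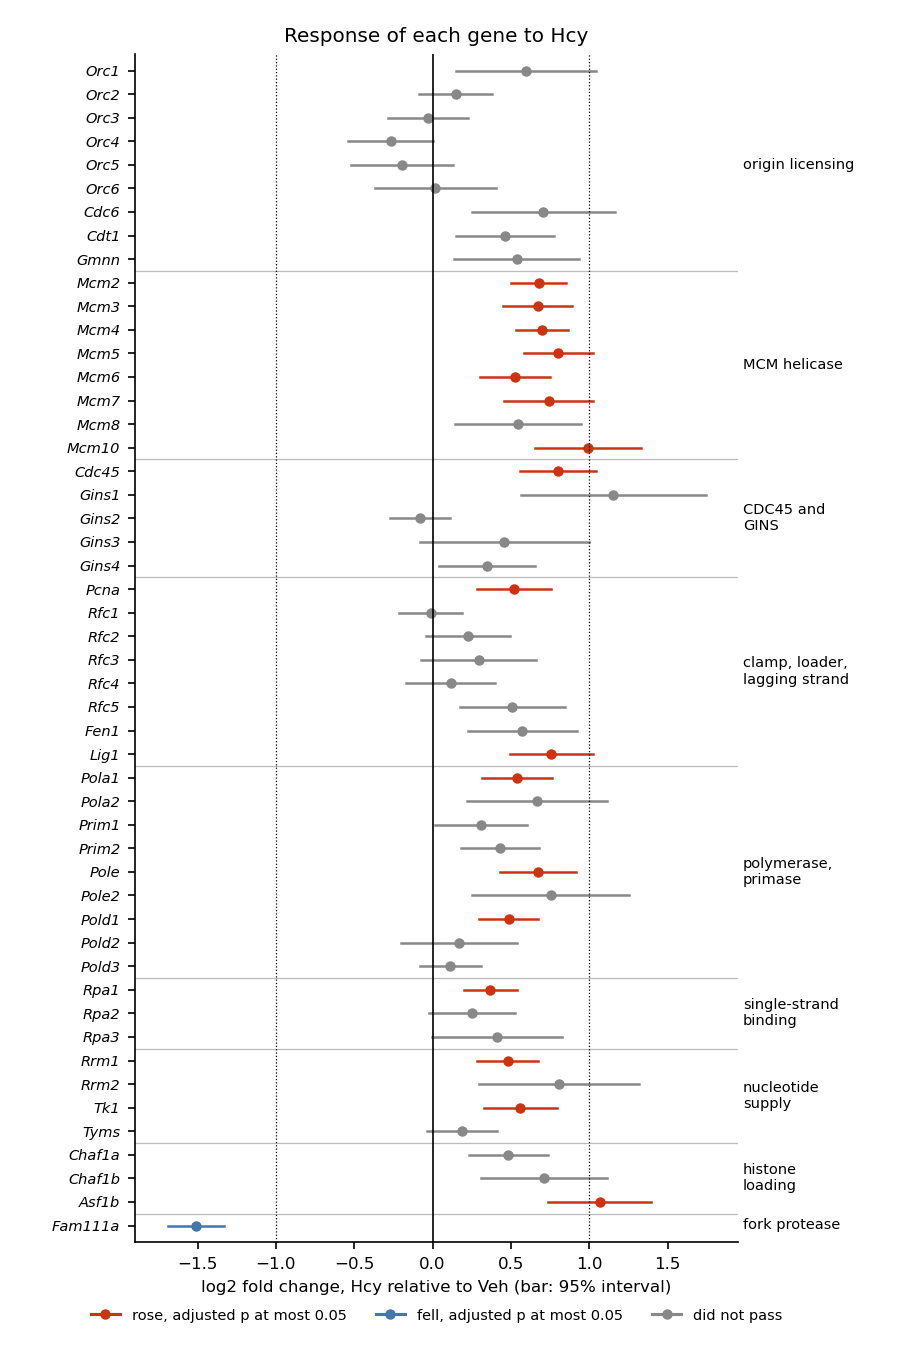
Log2 fold change of each of the 50 genes, Hcy relative to Veh, with 95% intervals, grouped by role and coloured by whether the edgeR adjusted p was at most 0.05; dotted lines mark the study's fold threshold. Intervals of the MCM genes lie wholly above 0, and those of Orc2 to Orc6 cross 0.

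For the clamp and the lagging strand, Pcna and Lig1 rose among 8 genes, with a median log2 fold change of 0.40. Pcna encodes the sliding clamp that ties polymerases to the template. It was at 121, 126 and 157 CPM in Veh and 199, 197 and 183 CPM in Hcy (log2 fold change 0.52 ± 0.10 (SE), edgeR adjusted p = 0.0391), the second highest of the 50 genes per kb in Veh. Veh 3 lay closest to the Hcy libraries but did not reach them. Pcna did not pass with a replicate block (edgeR adjusted p = 0.0571). Lig1, DNA ligase 1, seals the fragments of the lagging strand and was at 12.0, 12.7 and 14.4 CPM in Veh and 22.8, 23.2 and 20.2 CPM in Hcy (log2 fold change 0.76 ± 0.12 (SE), edgeR adjusted p = 0.0131). Its call is uncertain, since an annotated near copy, LOC100911727, counted 187, 73 and 27 in Veh and 25, 7 and 9 in Hcy. With the copy's counts added, the log2 fold change of Lig1 was 0.28 (adjusted p = 0.479), a summation chosen after the data were seen.
Fen1, the flap nuclease, and Rfc5, a clamp-loader subunit, were higher in every Hcy library without passing (log2 fold change 0.57 and 0.51, edgeR adjusted p = 0.112 and 0.144, DESeq2 adjusted p = 0.0209 and 0.0491). The other loader subunits did not pass, with Rfc1 at -0.01, Rfc4 at 0.11, Rfc2 at 0.23 and Rfc3 at 0.30 on the log2 scale, and their groups overlapped.

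Among 9 polymerase and primase genes all 9 were higher in Hcy, and Pola1, Pole and Pold1, the catalytic subunits of the polymerases alpha, epsilon and delta, rose. Pola1 measured 27.2, 29.6 and 27.7 CPM in Veh and 39.1, 45.9 and 37.8 CPM in Hcy (log2 fold change 0.54 ± 0.10 (SE), edgeR adjusted p = 0.0262). Pole, of the leading strand, measured 18.3, 22.0 and 18.8 CPM in Veh and 31.0, 33.9 and 29.4 CPM in Hcy (log2 fold change 0.67 ± 0.11 (SE), edgeR adjusted p = 0.0148). Pold1 measured 24.2, 23.4 and 25.1 CPM in Veh and 34.8, 33.2 and 33.8 CPM in Hcy (log2 fold change 0.49 ± 0.08 (SE), edgeR adjusted p = 0.0196). In all 3 genes the lowest Hcy library lay above the highest Veh library. The other subunits did not pass: Pola2 was at 0.66, Pole2 at 0.75, Prim2 at 0.43, Prim1 at 0.31, Pold2 at 0.17 and Pold3 at 0.11 on the log2 scale, with edgeR adjusted p from 0.0992 for Prim2 to 0.738 for Pold2. With DESeq2, Pola2 and Prim2 passed (adjusted p = 0.0308 and 0.0427). Pola2 shares its strand with an overlapping gene model, Cdc42ep2 (3425 counts in all against 1270 for Pola2), so its reads may be uncertain. Rpa1, the large subunit of the complex that coats single-stranded DNA, measured 99.0, 93.2 and 99.2 CPM in Veh and 126, 133 and 118 CPM in Hcy (log2 fold change 0.37 ± 0.07 (SE), edgeR adjusted p = 0.0405). With a replicate block Rpa1 did not pass (edgeR adjusted p = 0.0843). Rpa2 and Rpa3 were at 0.25 and 0.41 with overlapping groups.

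Nucleotide supply showed Rrm1 and Tk1 rising of 4 genes. Rrm1 is the large subunit of ribonucleotide reductase, which makes deoxynucleotides, and was at 116, 116 and 137 CPM in Veh and 169.6, 179 and 166 CPM in Hcy (log2 fold change 0.48 ± 0.09 (SE), edgeR adjusted p = 0.0237). Tk1, the thymidine kinase of the salvage route, was at 32.8, 34.7 and 42.0 CPM in Veh and 54.7, 55.8 and 50.9 CPM in Hcy (log2 fold change 0.56 ± 0.10 (SE), edgeR adjusted p = 0.0271). Both had all Hcy libraries above all Veh libraries. Rrm2, the small subunit, was at 7.60, 12.5 and 8.24 CPM in Veh and 14.1, 21.2 and 14.3 CPM in Hcy, a log2 fold change of 0.81 that did not pass (edgeR adjusted p = 0.129), and Hcy 2 was the highest of its group. It passed with DESeq2 (adjusted p = 0.0132), and in edgeR with no count filter (0.0443) and with a replicate block (0.0192). A near copy, LOC100359539, held 1103 counts against 1194 for Rrm2, and with both summed Rrm2 passed (log2 fold change 0.65, adjusted p = 0.0490), an added setting. Tyms, thymidylate synthase, was at 0.19.

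Histone loading on new DNA is done by CAF-1 (Chaf1a and Chaf1b) and the chaperone ASF1. Asf1b measured 5.70, 5.93 and 6.99 CPM in Veh and 14.0, 13.4 and 11.6 CPM in Hcy and was the gene with the largest log2 fold change among those that rose, 2.10-fold (log2 fold change 1.07 ± 0.14 (SE), edgeR adjusted p = 0.00857). The highest Veh library stood well under the lowest Hcy library. Without Hcy 1, Asf1b did not pass (log2 fold change 1.01, edgeR adjusted p = 0.0528). Chaf1a and Chaf1b were higher in every Hcy library without passing (log2 fold change 0.48 and 0.71, edgeR adjusted p = 0.0661 and 0.0896). Both passed with DESeq2 (adjusted p = 0.0133 and 0.00863) and with no count filter in edgeR (0.0389 and 0.0342).

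Fam111a was the member that fell. It encodes a PCNA-binding serine protease that clears protein obstacles from forks, and is known also for restricting viral replication. The deposited table lists it on chromosome 1, plus strand, from 229003961 to 229019527, without naming a build, so these coordinates are not those of the promoter shown above. It measured 424, 481 and 491 CPM in Veh and 156, 164 and 169 CPM in Hcy, and every Hcy library was far below every Veh library. Its level fell by 1.51 on the log2 scale ± 0.08 (SE), or 2.85-fold lower (95% interval -1.69 to -1.33, edgeR adjusted p = 7.62e-05). Per kb, Fam111a was the most abundant of the 50 genes in Veh, at 146 CPM per kb, above Pcna at 116 CPM per kb, and in Hcy it was at 51.1 CPM per kb, below Pcna at 166 CPM per kb.

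**Figure D5:**
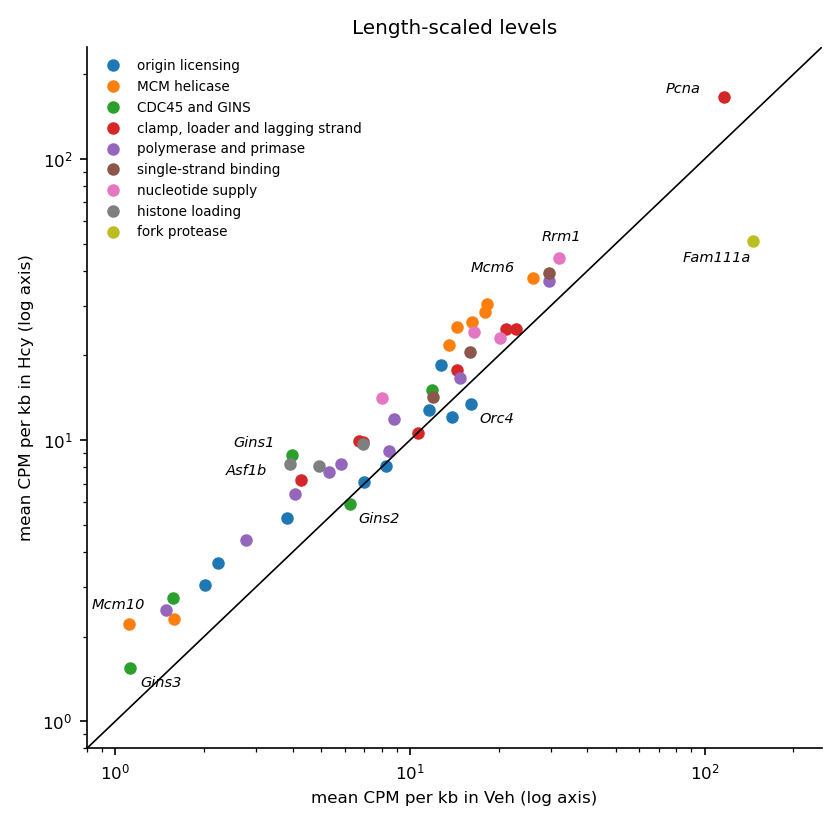
Mean length-scaled level of each of the 50 genes in Veh (horizontal) and Hcy (vertical), CPM per kb on log axes, coloured by role, with the line of equal level. Most points lie just above the line, and Fam111a lies far below it at 146 in Veh and 51.1 in Hcy.

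Neighbouring gene lists were read the same way, beside 1.32% of all genes tested that rose, 1.01% that fell and 6854 of 14603 that were higher. Of 39 other replication genes tested, 5 rose (12.8%) and 0 fell (edgeR), with a median log2 fold change of 0.17: Uhrf1 and Dnmt1, which copy DNA methylation to the new strand (0.79 and 0.44, adjusted p = 0.00483 and 0.0160), Timeless, of the fork protection complex (0.71, adjusted p = 0.0159), Clspn, claspin of the replication checkpoint (0.88, adjusted p = 0.0179), and Pclaf, a PCNA-binding factor (0.89, adjusted p = 0.0308), the last named after its value was seen. In other nucleotide synthesis, the mitochondrial folate genes Mthfd2 and Shmt2 rose (0.55 and 0.36, adjusted p = 0.0119 and 0.0392) among 38 tested (5.26%), with a median of 0.12. Cda, cytidine deaminase, fell from 15, 10 and 13 counts in Veh to 1, 1 and 3 in Hcy, so near the floor that no fold is given (adjusted p = 0.0418).
Of 25 mitosis genes 1 rose (4%), Top2a, the topoisomerase that untangles chromosomes (0.76, adjusted p = 0.0432), with a median of 0.40 and 22 of 25 higher. Of 28 regulators of the G1/S step 1 rose (3.57%), Mycn, from 37, 40 and 24 counts in Veh to 81, 101 and 131 in Hcy (1.67, adjusted p = 0.00781), with a median of 0.10 and 15 of 28 higher. By direction, 27 of 39 other replication genes and 27 of 38 other nucleotide genes were higher. These list counts also moved with single libraries. Without Veh 3, 7 other replication genes, 7 other nucleotide genes, 5 mitosis genes and 3 G1/S genes rose. Without any other library, at most 2 of the other replication genes rose, at most 1 of the other nucleotide genes (after leaving out Hcy 2), and 0 of the mitosis genes, so that Top2a did not pass. Mycn did not pass without Hcy 3, and Cda passed only when Veh 3 was the library left out.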

How the data were processed

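RNA from 6 libraries of rat brain microvascular endothelial cells was enriched for poly(A) RNA and sequenced paired-end. The authors deposited a table of counts per gene; the submitters' processing notes name fastp, HISAT2 2.2.1, StringTie 2.2.3, Cufflinks, featureCounts 2.0.6, DESeq2 1.42.0 and the builds mRatBN7.2 and rn7, while the table names no build and the strand setting is not given in the sources used here. The authors' own comparison columns (scaled values, fold changes and p-values) were not used. Genes with at least 10 summed counts were kept and normalised by TMM, and Hcy was compared with Veh by the quasi-likelihood test of edgeR 4.0.16 (R 4.3.3, limma 3.58.1), two-sided, with Benjamini-Hochberg adjustment over all genes tested. Intervals are at 95%. The script was tested on simulated data. The members, lists and motifs were chosen with earlier results of these data known, and all 50 members were named. Values per library are given for each member that passed, for the highest levels per kb, and for the member of smallest p in a role where none passed; related lists name at most 4 genes by smallest p. Outside this rule, Pclaf was named and values per library were given for Gins1 and Rrm2, chosen after their values were seen. Counts per library were also given for Mycn, Cda and the near copy of Lig1. Cell-type markers were named without this limit. Other settings (DESeq2 1.42.0, its size factors, library totals, other count filters, a replicate block, each library left out, near copies summed) are reported in the closing section.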

Additional observations from a re-analysis of the deposited data

How the results depend on the processing

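The 17 members that rose became 26 with DESeq2, and ranged from 4 to 31 with a library left out, 31 of them without Veh 3. Labels give both groups replicate numbers 1, 2 and 3, but same-numbered libraries did not deviate together (correlations -0.007, 0.238 and 0.058); with a replicate block 15 members rose, 14 of them shared, as Mcm6, Pcna and Rpa1 did not pass (edgeR adjusted p = 0.0537, 0.0571 and 0.0843) and Rrm2 did (0.0192). Fam111a fell in every alternative. The 2 members past the fold threshold became 3 with DESeq2 and with no count filter, each time with Gins1, and 1 to 3 with a library left out (with Gins1 without Veh 3, with Mcm10 without Veh 2). With near copies summed, a setting chosen after the data were seen, 17 members rose, 16 of them shared, as Lig1 did not pass and Rrm2 did. The median over members was 0.44 to 0.55 with a library left out. Other replication genes that rose numbered 1 to 7 with a library left out. Other nucleotide genes that rose numbered 5 with DESeq2, 3 with its size factors and with edgeR's own filter, 1 with the replicate block and 0 to 7 with a library left out; those that fell numbered 0 with DESeq2, with edgeR's filter and with the block, and 0 to 1 with a library left out. Mitosis genes that rose numbered 3 with DESeq2 and with no filter, 2 with library totals, 0 with the block and 0 to 5 with a library left out. G1/S genes that rose numbered 0 to 3 with a library left out, and those that fell 1 with DESeq2 and 0 to 1 with a library left out. The sign was kept by 47 members in every alternative. With a library left out, Orc3 ranged from -0.107 to 0.051, Orc6 from -0.092 to 0.187 and Rfc1 from -0.080 to 0.070 in log2 fold change. Over all genes 350 rose and 262 fell with DESeq2, against 46 to 500 and 31 to 457 with a library left out. The cause of these differences was not tested. Depth sets a floor of 3 counts per library.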
